A study of Arabidopsis thaliana with 12 samples.

Results

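Of 20114 genes listed for every group of Arabidopsis thaliana seedlings, 289 stood higher than in WT in both trb45 lines and lower than in WT in the trb123 triple mutant. They were chosen by their measured values: the group mean of log2(FPKM + 1) had to exceed that of WT by at least 0.3 in trb45 line 1 and in trb45 line 2, and to lie at least 0.3 below it in trb123. FPKM is a fragment number divided by gene length in kilobases and by library size. The 12 libraries were 3 each of trb45 line 1, trb45 line 2, trb123 and WT (Col-0). All came from whole untreated seedlings aged 7 days, first held cold (4 °C) and dark for 2 days, then grown at 23 °C with 16 h of light and 8 h of darkness on medium with 1% sucrose. The labels number the trb45 lines 1 and 2 and do not describe the alleles of any mutant, nor whether replicates were separate cultures, so spread between replicates may be technical. The series asks how TRB4 and TRB5 act on genes under Polycomb control.

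TRB proteins carry a Myb-type DNA-binding domain and a domain like that of linker histone H1. They bind telomeric repeats and the telobox, a short telomere-like motif found in many plant promoters. TRB1, TRB2 and TRB3 are known to bring Polycomb repressive complex 2, which deposits the repressive mark H3K27me3, to target genes. None of the 5 TRB genes was a member. TRB4 averaged 4.29 ± 1.22, 5.15 ± 0.85 and 7.28 ± 1.25 FPKM in trb45 line 1, trb45 line 2 and trb123, and 9.19 ± 1.61 FPKM in WT (SD, n = 3 each). TRB5 averaged 3.25 ± 0.35, 3.12 ± 0.17 and 14.4 ± 0.97 FPKM in the same mutants, and 11.8 ± 0.75 FPKM in WT. TRB1, TRB2 and TRB3 averaged 0.76, 2.77 and 1.60 FPKM in trb123, and 10.3, 12.02 and 7.47 FPKM in WT. Each mutant thus had its lowest levels for the genes its name lists.

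The members are shown first by the promoters of those on which the promoter comparison or the largest differences turn. Bases are the 250 before the annotated gene start, 5′ to 3′ on the gene's strand, from RefSeq TAIR10.1. Capitals mark matches to any of 8 motifs searched on both strands: telobox AAACCCTA, short telobox AACCCTA (contained in the telobox), site II element TGGGCC, W-box TTGACC, G-box CACGTG, GCC-box GCCGCC, RY element CATGCATG and evening element AAAATATCT. The first 5 sequences are those of all members that held a telobox: AT4G19530 at chr4:10651494-10651743 (plus strand), a TIR-NBS-LRR disease resistance gene; AT3G16650 at chr3:5670768-5671017 (plus strand), a WD40 repeat gene; AT1G22550 at chr1:7968693-7968942 (minus strand), a major facilitator transporter; AT5G09830 at chr5:3058826-3059075 (minus strand), a BolA-like gene; and AT5G62360 at chr5:25040290-25040539 (plus strand), an invertase or pectin methylesterase inhibitor gene.
AT4G19530: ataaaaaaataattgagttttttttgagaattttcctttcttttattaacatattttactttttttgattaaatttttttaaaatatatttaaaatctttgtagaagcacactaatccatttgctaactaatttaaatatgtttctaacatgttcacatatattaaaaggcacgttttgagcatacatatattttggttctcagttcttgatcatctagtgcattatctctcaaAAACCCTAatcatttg
AT3G16650: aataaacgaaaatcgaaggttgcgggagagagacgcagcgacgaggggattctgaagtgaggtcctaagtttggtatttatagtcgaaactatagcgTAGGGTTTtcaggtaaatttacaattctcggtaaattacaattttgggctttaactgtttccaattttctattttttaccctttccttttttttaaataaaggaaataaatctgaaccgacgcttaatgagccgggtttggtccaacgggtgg
AT1G22550: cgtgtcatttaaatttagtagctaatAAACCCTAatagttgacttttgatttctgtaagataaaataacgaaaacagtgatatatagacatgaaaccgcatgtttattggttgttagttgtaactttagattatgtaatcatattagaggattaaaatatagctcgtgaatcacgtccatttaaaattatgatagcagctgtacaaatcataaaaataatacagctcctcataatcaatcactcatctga
AT5G09830: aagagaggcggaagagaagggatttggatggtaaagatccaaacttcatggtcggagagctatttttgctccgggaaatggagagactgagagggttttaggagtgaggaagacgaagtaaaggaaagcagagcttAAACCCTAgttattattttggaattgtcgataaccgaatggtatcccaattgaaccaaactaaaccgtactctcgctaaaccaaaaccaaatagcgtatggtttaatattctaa
AT5G62360: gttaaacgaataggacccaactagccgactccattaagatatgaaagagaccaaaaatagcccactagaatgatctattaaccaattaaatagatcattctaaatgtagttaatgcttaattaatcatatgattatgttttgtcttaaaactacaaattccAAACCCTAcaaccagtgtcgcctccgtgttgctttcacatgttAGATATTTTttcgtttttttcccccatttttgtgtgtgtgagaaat

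The other 4 belong to members with large differences or with known roles: the water channel gene PIP2;4 at chr5:24377207-24377456 (minus strand), the methyltransferase genes IGMT4 at chr1:7400737-7400986 (minus strand) and IGMT1 at chr1:7388513-7388762 (minus strand), and the flowering repressor gene FLC at chr5:3179449-3179698 (minus strand). PIP2;4 and IGMT4 held none of the 8 motifs in these 250 bases, IGMT1 held a site II element and FLC held a G-box and an evening element.
PIP2;4: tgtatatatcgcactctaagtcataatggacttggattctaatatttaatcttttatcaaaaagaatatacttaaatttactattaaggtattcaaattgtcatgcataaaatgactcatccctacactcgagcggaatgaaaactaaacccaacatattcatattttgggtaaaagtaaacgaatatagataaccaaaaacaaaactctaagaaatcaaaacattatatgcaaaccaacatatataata
IGMT4: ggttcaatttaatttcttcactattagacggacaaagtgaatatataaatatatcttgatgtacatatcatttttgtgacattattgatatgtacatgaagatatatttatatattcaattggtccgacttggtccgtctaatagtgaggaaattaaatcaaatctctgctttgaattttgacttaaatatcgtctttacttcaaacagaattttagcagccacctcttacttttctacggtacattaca
IGMT1: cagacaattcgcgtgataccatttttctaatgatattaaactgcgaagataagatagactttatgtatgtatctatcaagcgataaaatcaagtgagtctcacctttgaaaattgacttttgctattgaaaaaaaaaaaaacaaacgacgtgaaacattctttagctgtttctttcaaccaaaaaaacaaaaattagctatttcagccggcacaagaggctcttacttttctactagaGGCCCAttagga
FLC: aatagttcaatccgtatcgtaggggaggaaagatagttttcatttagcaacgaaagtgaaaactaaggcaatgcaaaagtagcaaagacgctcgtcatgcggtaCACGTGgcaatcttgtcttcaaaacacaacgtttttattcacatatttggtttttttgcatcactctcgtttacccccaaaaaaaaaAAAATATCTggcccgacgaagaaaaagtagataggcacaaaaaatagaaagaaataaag

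Over the window from 250 bases before to 50 bases after the start, the telobox stood in 5 of 289 members (1.73%) and in 1103 of 20019 listed genes with a window (5.51%). The short telobox stood in 3.81% of members and 7.77% of listed genes. The site II element, often found with the telobox in genes of ribosomes and cell growth, stood in 5.88% of members and 18.6% of listed genes. The evening element, a site bound by clock proteins, stood in 15 members (5.19%), FLC, JAL22, STP14 and AIF1 among them, and in 2.96% of listed genes. The W-box (12.8% and 14.3%), G-box (10.0% and 8.89%), GCC-box (2.42% and 2.65%) and RY element (1.04% and 0.724%) differed less. These shares are descriptions, with no test. In the 250 bases before the start alone, the telobox share was 1.73% of members and 3.56% of listed genes, that of the site II element 5.88% and 16.3%, that of the evening element 4.15% and 2.44%, and that of the RY element 0.346% and 0.654%. The distance between members and listed genes was thus smaller for the telobox in this window, and the RY element changed sides. In all annotated genes the telobox share was 6.14% and the evening element share 2.48% over the longer window. In the 250 bases alone these shares were 4.73% and 2.11%.

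The members were 1.44% of the listed genes. The opposite pattern, lower in both lines and higher in trb123, held for 300 genes by the same distance. A further 996 genes stood at least 0.3 higher in all 3 mutant groups and 1285 at least 0.3 lower in all 3. The members made up 16.9% of the 1714 genes higher in both lines and 5.61% of the 5151 genes lower in trb123. Their median difference from WT was 0.64 in trb45 line 1, 0.56 in trb45 line 2 and -0.64 in trb123, against medians of -0.05, 0.01 and 0.06 over all listed genes. The highest values were 2.01 and 1.66, both of RAV1, and the lowest in trb123 was -4.92, of AT5G26270. A distance of at least 1 was reached by 38 members in trb45 line 1, 26 in trb45 line 2 and 67 in trb123. These differences chose the members and are therefore not tested.

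**Figure D1:**
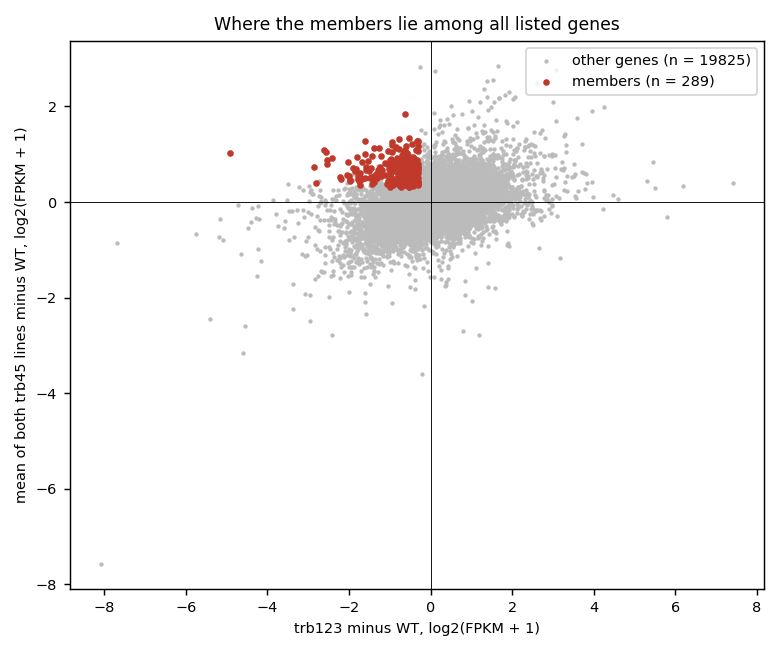
Each point is 1 of the 20114 listed genes, placed by trb123 minus WT (horizontal) and the mean of both trb45 lines minus WT (vertical), in group means of log2(FPKM + 1); the 289 members are red. They fill the upper left, down to -4.92 in trb123 for AT5G26270, as the choice of members requires.

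Just inside the limits lay AILP1 (0.301 in trb45 line 1), AT5G47950 (0.302 in trb45 line 1) and DOX1 (-0.302 in trb123), and just outside them HGPT (0.299 in trb45 line 2), AT1G76960 (-0.298 in trb123) and AT5G10150 (0.297 in trb45 line 2). AT5G10150 is annotated UPSTREAM OF FLC, and FLC itself is a member.

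Single libraries followed the group means for most members. All 3 libraries of trb45 line 1 lay above all 3 of WT for 227 members and for 13.1% of all listed genes, in a contrast that chose the members. The same held in trb45 line 2 for 248 members (24.3% of all genes), and trb123 lay wholly below WT for 254 (29.9% of all genes). For 177 members every one of these held, against 1.42% of all genes. Library medians over the members, relative to the WT mean, were 0.47, 0.80 and 0.65 in trb45 line 1, 0.59, 0.67 and 0.52 in trb45 line 2, -0.72, -0.56 and -0.73 in trb123, and 0.01, 0.03 and -0.02 in WT. Replicate 1 of trb45 line 1 was the lowest of its group for 190 of 289 members and for 7427 of 20114 listed genes. Replicate 2 of trb123 was the highest of its group for 195 members and for 7321 listed genes. The 3 libraries of trb45 line 1 differed on a small part of the tested genes. In replicate 3, 226 genes were lower by at least 1 than in replicates 1 and 2, and 21 were higher by at least 1. Pearson's r between these libraries across tested genes was 0.973 to 0.984. The same count is not given for other libraries. Over the 226 genes, the median log2(FPKM + 1) was 4.41, 4.41 and 2.92 in replicates 1, 2 and 3 of trb45 line 1, 2.90 to 3.04 in trb45 line 2, 3.21 to 3.23 in trb123 and 4.37 to 4.50 in WT. On these genes replicates 1 and 2 of line 1 thus lay at the WT level, and replicate 3 lay near trb45 line 2. Over the 21 genes the medians were 1.08, 0.98 and 3.28 in replicates 1, 2 and 3 of trb45 line 1, 0.98 to 2.56 in trb45 line 2, 2.79 to 2.99 in trb123 and 0.82 to 1.69 in WT. What sets these libraries apart was not tested, and values of trb45 line 1 are means over libraries that differ in this way. None of these genes was a member, which the choice of members largely required. By these medians the 226 lay below WT in trb45 line 2 and the 21 lay above WT in trb123. Against WT, 262 members reached 0.3 in replicates 1 and 2 of that line. The median difference over the members was 0.62 there and 0.65 in replicate 3, against -0.05 and -0.03 over all listed genes. The same libraries made up the mean that chose the members, so these values are a description and no check.

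The tables give no read counts. Depth, fitted to the steps between low FPKM values of short genes, came to 22.3 to 24.4 M fragments (M, mega) per library, with 73.3% to 91.3% of 45 to 80 low values within 0.25 of a whole fragment. Values without such steps would also often lie that near, so these shares are a weak check of the depth. FPKM sums were 628368 to 653941, and 17557 to 17934 genes per library had at least 1 FPKM. Pearson's r between replicates across tested genes was 0.973 to 0.996. Members spanned 0.477 to 3360 FPKM in WT, with a median of 9.97 FPKM, against a median of 6.65 FPKM over all listed genes.

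Water channel genes were among the members. Plasma membrane intrinsic proteins (PIPs) carry water across the plasma membrane and tonoplast intrinsic proteins (TIPs) across the vacuolar membrane. Members were 5 of the 13 PIP genes (PIP1;1, PIP1;3, PIP1;5, PIP2;2 and PIP2;4) and 1 of 8 listed TIP genes (TIP1;2). PIP2;4 had 24.8, 32.8 and 38.3 FPKM in trb45 line 1, 22.6, 27.0 and 17.4 FPKM in trb45 line 2, 2.45, 3.0 and 2.69 FPKM in trb123, and 10.2, 10.7 and 9.78 FPKM in WT. No library of one of these genotypes overlapped another: every trb45 library was above every WT library and every trb123 library below. PIP1;3 had 499.1, 408.1 and 434.0 FPKM in trb45 line 1, 444.1, 384.2 and 524.9 FPKM in trb45 line 2, 84.3, 95.9 and 82.6 FPKM in trb123, and 305.3, 288.9 and 320.1 FPKM in WT. TIP1;2, far more abundant, had 1989 to 2175 FPKM in trb45 line 1, 1945 to 2257 FPKM in trb45 line 2, 799.1 to 823.5 FPKM in trb123, and 1491 to 1697 FPKM in WT. The differences of PIP1;5 were 0.64, 0.58 and -1.0 in trb45 line 1, trb45 line 2 and trb123, those of PIP2;2 0.39, 0.38 and -0.50, and those of PIP1;1 0.36, 0.35 and -0.44. PIP2;2 shares 94.9% of its transcript sequence over 63.6% of its length with PIP2;3, so fragments may have been split between them.

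Genes of the PIP family that are no members went both ways. Among the 8 PIP genes that are no members, limma, a linear model with a shared estimate of spread, called 3 higher and 1 lower in trb45 line 1 at an adjusted p under 0.05, 2 higher in trb45 line 2, and 2 higher and 2 lower in trb123. Over all tested genes, 33.9% were called higher and 25.5% lower in trb123, so calls both ways there do not mark out the family. PIP1;2 fell in trb123 (-0.87 ± 0.10 SE, adjusted p = 8.24e-06), where PIP2;5 rose (1.63 ± 0.21 SE, adjusted p = 2.53e-05). PIP2;1 rose in trb45 line 1 (0.41 ± 0.12 SE, adjusted p = 0.0349) and line 2 (0.59 ± 0.12 SE, adjusted p = 0.00388). Over all 13 PIP genes the medians were 0.36, 0.35 and -0.44 in trb45 line 1, trb45 line 2 and trb123, with the members included. Over all tested genes they were -0.05, 0.01 and 0.07. The medians of the 13 are those of the member PIP1;1, and 5 of the 13 were chosen on these contrasts. They are thus a description and no sign of a trend in the family. Of the 7 TIP genes that are no members, 1 was called higher in trb45 line 1, 2 higher in trb45 line 2, and 3 higher and 2 lower in trb123. TIP2;3 (-2.05 ± 0.18 SE, adjusted p = 1.21e-06) and TIP2;2 (-1.39 ± 0.15 SE, adjusted p = 7.33e-06) fell in trb123, where TIP3;1, a seed gene, rose (2.67 ± 0.31 SE, adjusted p = 1.23e-05). Over the 8 TIP genes, 1 member included, the medians were 0.10, -0.01 and 0.06.

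**Figure D2:**
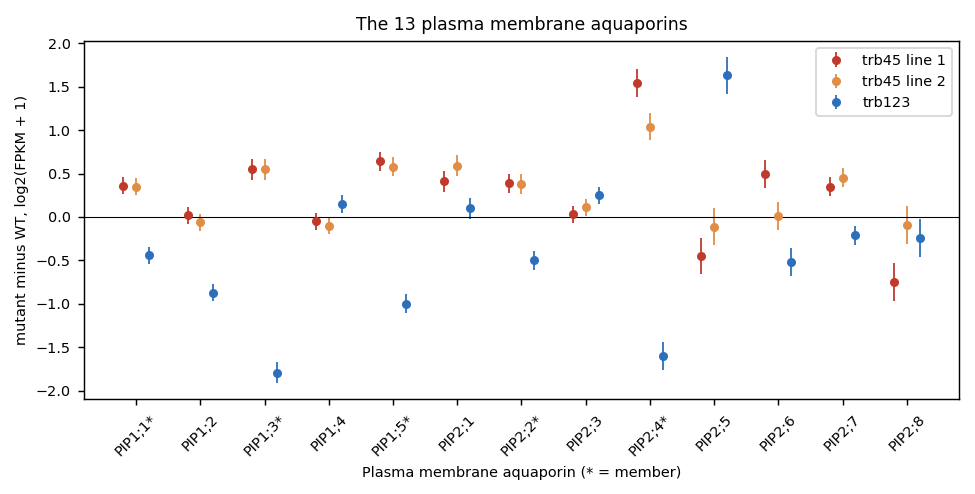
Differences from WT (vertical, log2(FPKM + 1) with standard errors of the fit over 12 libraries) of the 13 plasma membrane aquaporin genes in trb45 line 1 (red), trb45 line 2 (orange) and trb123 (blue); stars mark the 5 members. PIP2;4 spans 1.54, 1.04 and -1.60, while PIP2;5 stands at 1.63 in trb123.

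Auxin response genes formed another large group. SAUR genes encode small proteins induced by auxin that promote cell expansion, and Aux/IAA proteins repress auxin-responsive transcription and are themselves induced by auxin. Members were 9 of 51 listed SAUR genes (17.6%) and 4 of 21 listed Aux/IAA genes (19.0%). Both families were picked with the members known, so these shares are descriptions. SAUR24 had 6.99, 14.8 and 13.03 FPKM in trb45 line 1, 10.6, 10.9 and 12.6 FPKM in trb45 line 2, 1.67, 2.63 and 1.98 FPKM in trb123, and 4.35, 4.38 and 4.74 FPKM in WT. AT1G29460 had 3.14, 7.21 and 7.03 FPKM in trb45 line 1, 4.96, 6.73 and 6.19 FPKM in trb45 line 2, 0.75, 0.57 and 0.74 FPKM in trb123, and 2.95, 2.18 and 1.66 FPKM in WT. In both SAUR genes trb45 line 1 replicate 1 was the lowest trb45 library, and the trb45 and WT libraries did not overlap. Among the SAUR members, 5 lay on a stretch of chromosome 1 (AT1G29420, AT1G29450, AT1G29460, AT1G29500 and SAUR68). SAUR24 and SAUR68 are close in sequence to SAUR19 (93.0% identity) and SAUR63 (95.3% identity), so their values may include shared fragments.

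IAA29 had 4.87, 7.21 and 4.29 FPKM in trb45 line 1, 2.18, 2.83 and 4.74 FPKM in trb45 line 2, 0.49, 0.39 and 0.29 FPKM in trb123, and 1.43, 1.24 and 1.39 FPKM in WT. IAA3 (SHY2) had 7.98, 13.6 and 12.6 FPKM in trb45 line 1, 9.16, 11.3 and 9.16 FPKM in trb45 line 2, 0.89, 1.3 and 0.55 FPKM in trb123, and 6.24, 7.37 and 4.75 FPKM in WT. In both genes every trb45 library was above every WT library and every trb123 library below, while the trb45 lines overlapped each other. IAA7 and IAA1 differed from WT by 0.66 and 0.69 in trb45 line 1, 0.54 and 0.62 in trb45 line 2, and -1.73 and -0.36 in trb123. Of the 16 tested Aux/IAA genes that are no members, 4 were called higher and 1 lower in trb45 line 1, 3 higher and 2 lower in trb45 line 2, and 6 higher and 6 lower in trb123. Of the 39 tested SAUR genes that are no members, 12 were called higher and 1 lower in trb45 line 1, 8 higher and 4 lower in trb45 line 2, and 17 higher and 12 lower in trb123. Calls both ways in trb123 were common over all tested genes as well (33.9% higher and 25.5% lower).

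Members also included transcription factors of light and brassinosteroid growth control. In this circuit PIF4 promotes elongation, HFR1 and PAR1 oppose PIF proteins, and the small PRE proteins and HBI1 form a chain of activating and inhibiting helix-loop-helix partners. Of 26 listed genes of this circuit, a list drawn up with the members known, 11 were members: PIF4, HFR1, PAR1, PRE1, BNQ2, HBI1, BEE3, AIF1, AIF3, P1R1 and BEH1. HFR1 had 11.8, 17.8 and 12.6 FPKM in trb45 line 1, 14.4, 14.0 and 15.8 FPKM in trb45 line 2, 2.25, 3.11 and 2.42 FPKM in trb123, and 5.17, 4.74 and 5.43 FPKM in WT. HBI1 had 55.1, 65.9 and 44.7 FPKM in trb45 line 1, 39.3, 43.0 and 37.9 FPKM in trb45 line 2, 5.15, 9.19 and 4.89 FPKM in trb123, and 32.8, 30.9 and 33.1 FPKM in WT. PIF4 had 59.7, 69.6 and 60.8 FPKM in trb45 line 1, 67.4, 68.8 and 72.2 FPKM in trb45 line 2, 17.1, 22.2 and 16.7 FPKM in trb123, and 55.1, 46.3 and 48.0 FPKM in WT. The distance to WT was thus larger on the trb123 side for PIF4 and HBI1 and larger on the trb45 side for HFR1. PRE1, BEE3 and BEH1 lay like HBI1, at -1.57, -2.0 and -1.76 in trb123. The blue-light receptor gene PHOT1 (0.37, 0.47 and -1.41 in trb45 line 1, trb45 line 2 and trb123) and PKS1 (1.07, 0.82 and -0.44), whose product binds phototropin, were members as well. Of the 14 tested genes of the circuit that are no members, 7 were called lower and 2 higher in trb123, with 2 higher in trb45 line 1, and 1 higher and 1 lower in trb45 line 2.

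**Figure D3:**
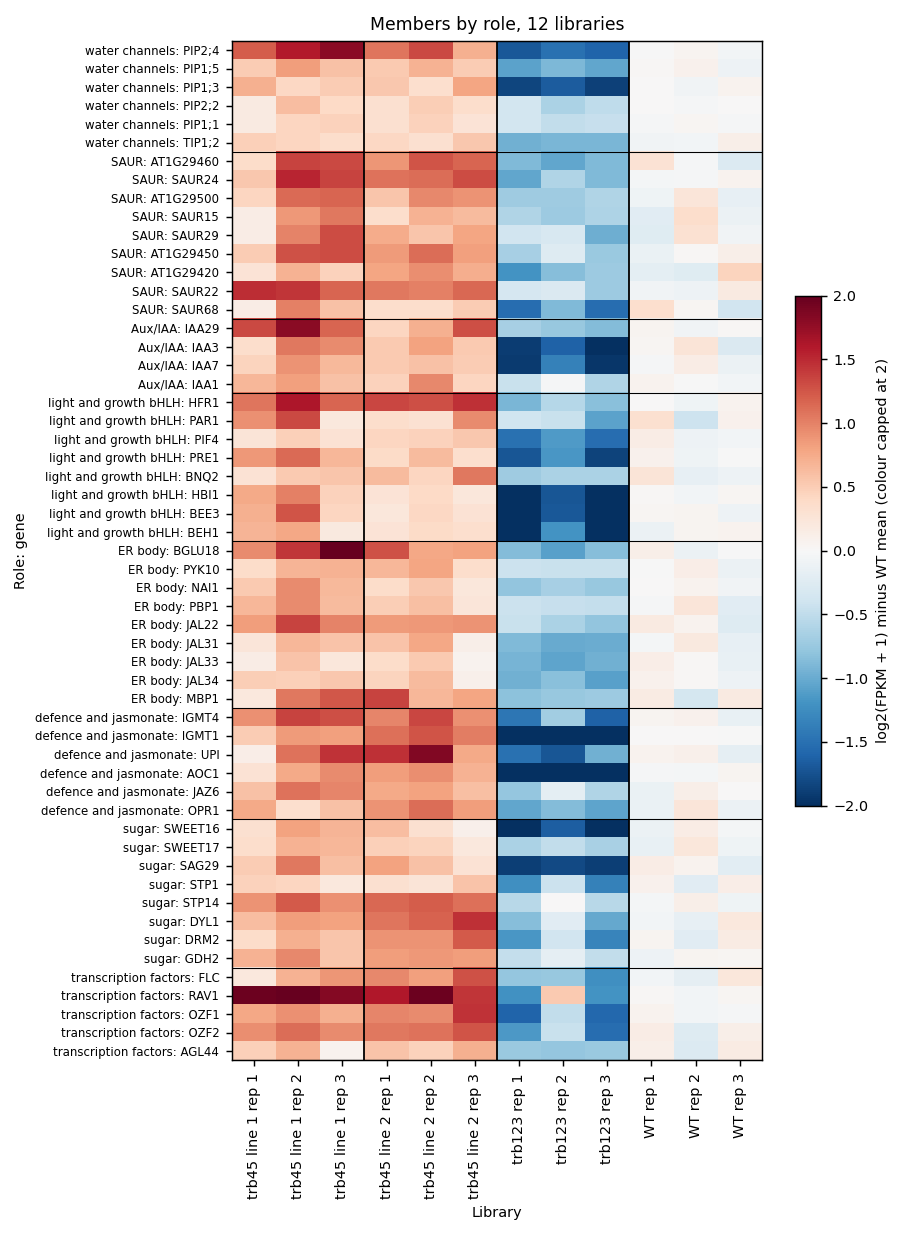
Each row is a member with a described role and each column a library, from trb45 line 1 and line 2 to trb123 and WT; colour is log2(FPKM + 1) minus the WT mean, capped at 2. Red fills the 6 trb45 columns and blue the trb123 columns, and RAV1 in replicate 2 of trb123, at 16.0 FPKM, is red.

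Genes of the ER body, an endomembrane store of beta-glucosidases in seedlings and roots, were members too. PYK10 is its main beta-glucosidase, BGLU18 a related enzyme, NAI1 the helix-loop-helix factor needed for ER bodies, and PBP1 and the jacalin-related lectins form complexes with PYK10. Of 20 listed genes, in a list drawn up with the members known, 9 were members: PYK10, BGLU18, NAI1, PBP1, JAL22, JAL31, JAL33, JAL34 and MBP1. PYK10 had 1118, 1385 and 1405 FPKM in trb45 line 1, 1362, 1497 and 1098 FPKM in trb45 line 2, 637.5, 632.7 and 636.1 FPKM in trb123, and 855.8, 947.2 and 793.5 FPKM in WT. BGLU18 had 57.5, 80.9 and 143.1 FPKM in trb45 line 1, 72.1, 50.7 and 51.8 FPKM in trb45 line 2, 15.6, 13.2 and 15.7 FPKM in trb123, and 31.7, 27.1 and 29.3 FPKM in WT. NAI1 had 12.7, 17.4 and 13.9 FPKM in trb45 line 1, 11.3, 12.9 and 10.2 FPKM in trb45 line 2, 4.52, 5.03 and 4.67 FPKM in trb123, and 8.56, 9.05 and 8.06 FPKM in WT. In none of the 3 genes did a mutant group overlap WT. JAL33 showed the smallest distances in the lines (0.31 and 0.31) and -0.98 in trb123. Of the 11 ER body genes that are no members, 2 were called higher and 1 lower in trb45 line 1, 2 higher and 0 lower in trb45 line 2, and 2 higher and 6 lower in trb123, by limma at an adjusted p under 0.05.

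Several of these genes are active in roots, and summed levels of root cell markers differed between groups. Summed FPKM of 12 root endodermis markers was 173 to 194 in trb45 line 1, 113 to 184 in trb45 line 2, 103 to 108 in trb123 and 152 to 171 in WT. Summed FPKM of 11 root hair markers was 260.6 to 343.1 in trb45 line 1, 87.6 to 254.5 in trb45 line 2, 171 to 206 in trb123 and 217 to 297 in WT. Single markers were more mixed. Of the 11 root hair markers, limma called 1 higher in trb45 line 1 and 2 lower in trb45 line 2. In trb123 it called 2 higher and 1 lower, with a median difference of 0.06 over the 11. Of the 12 endodermis markers, it called 1 higher in trb45 line 1 and 2 lower in trb45 line 2. In trb123 it called 1 higher and 5 lower. Over all tested genes, 33.9% were called higher and 25.5% lower there. Summed FPKM of 5 guard cell markers was 25.8 to 29.3, 22.9 to 24.2 and 19.0 to 21.1 in trb45 line 1, trb45 line 2 and trb123, and 31.7 to 32.4 in WT. That of 8 leaf mesophyll markers was 61740 to 69270, 63730 to 64640 and 56150 to 60980 in the same mutants, and 60640 to 65940 in WT. No marker was at 0 in all 12 libraries and no member is among the markers. The member CAB3 is 96.1% identical over 68.4% of its transcript to the mesophyll marker LHCB1.3, so fragments may be shared. In whole seedlings fewer cells of a type and less RNA per cell cannot be told apart, and the part of cell makeup in the members' differences was not tested.

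Indole glucosinolates are defence compounds, and IGMT enzymes methylate them. Members were IGMT4, the highest-ranked by its smallest distance from WT, and IGMT1. IGMT4 had 47.2, 64.4 and 61.5 FPKM in trb45 line 1, 49.0, 63.2 and 47.0 FPKM in trb45 line 2, 8.39, 14.8 and 7.32 FPKM in trb123, and 25.6, 26.2 and 22.02 FPKM in WT. IGMT1 had 17.5, 22.5 and 22.1 FPKM in trb45 line 1, 27.1, 30.2 and 25.4 FPKM in trb45 line 2, 1.19, 2.16 and 1.15 FPKM in trb123, and 12.1, 12.1 and 11.9 FPKM in WT. Both kept all libraries of each genotype apart. Their transcripts are 92.3% identical over 80.6% of IGMT1, so fragments may be shared. IGMT2, IGMT3 and IGMT5, the other genes of the family, are no members: their differences were 0.13, 0.20 and -0.24 in trb45 line 1, -0.15, -0.13 and 0.37 in trb45 line 2, and -0.40, -0.64 and -0.28 in trb123. Elsewhere in the indole glucosinolate list, of 16 tested genes that are no members, 3 were called higher and 2 lower in trb45 line 1, 2 higher and 5 lower in trb45 line 2, and 3 higher and 7 lower in trb123. CYP81F4 (-3.0 ± 0.12 SE, adjusted p = 1.38e-09), MYB34 (-1.86 ± 0.10 SE, adjusted p = 1.68e-08) and CYP81F3 (-1.24 ± 0.12 SE, adjusted p = 2.05e-06) fell in trb123. CYP81F4 also fell in trb45 line 1 (-0.73, adjusted p = 0.00184) and line 2 (-0.74, adjusted p = 0.00114), as did MYB34 (-0.37, adjusted p = 0.0211, and -0.38, adjusted p = 0.0119), and CYP81F3 fell in line 2 (-0.43, adjusted p = 0.0152). These 3 genes thus did not share the members' pattern.

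UPI, a potato type I proteinase inhibitor active against chewing insects and fungi, had 23.2, 45.7 and 59.3 FPKM in trb45 line 1, 59.7, 78.4 and 36.5 FPKM in trb45 line 2, 6.87, 5.70 and 10.3 FPKM in trb123, and 22.1, 22.7 and 18.6 FPKM in WT. The lowest trb45 library, replicate 1 of line 1, was only just above the highest WT library. Its relative AT5G43570 rose in trb123 (1.40 ± 0.36 SE, adjusted p = 0.00504), and AT2G38870 was at 0.33 ± 0.16 SE there (adjusted p = 0.0845). Among 21 listed jasmonate genes, AOC1, an enzyme of jasmonate synthesis, and JAZ6, a repressor of jasmonate signalling, were members. AOC1 had 23.3, 32.5 and 37.0 FPKM in trb45 line 1, 34.3, 36.5 and 31.1 FPKM in trb45 line 2, 1.51, 3.12 and 1.01 FPKM in trb123, and 18.6, 18.4 and 19.5 FPKM in WT. JAZ6 differed from WT by 0.89, 0.72 and -0.53 in trb45 line 1, trb45 line 2 and trb123. Of the 18 tested jasmonate genes that are no members, 1 rose in trb45 line 1 and 1 fell in trb45 line 2, while 7 rose and 5 fell in trb123. AOC2 (-3.49 ± 0.28 SE, adjusted p = 4.93e-07), VSP2 (-2.79 ± 0.22 SE, adjusted p = 5.15e-07) and AOS (-2.32 ± 0.17 SE, adjusted p = 2.92e-07) fell in trb123.

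FLC, a MADS-box repressor of flowering and a classic Polycomb target, had 3.04, 4.62 and 5.43 FPKM in trb45 line 1, 5.81, 5.18 and 7.40 FPKM in trb45 line 2, 1.03, 1.07 and 0.49 FPKM in trb123, and 2.37, 2.08 and 3.07 FPKM in WT. One library of line 1 was below the highest WT library, whereas line 2 and trb123 did not overlap WT. An annotated antisense gene overlaps FLC. Strand use in counting is not given in the sources used here, so whether reads of the 2 genes were told apart is not known. Of its relatives, MAF5 (1.17 ± 0.10 SE, adjusted p = 3.66e-05) and MAF4 (0.93 ± 0.15 SE, adjusted p = 0.00103) rose in trb45 line 2. MAF5 also rose in trb45 line 1 (0.38, adjusted p = 0.0267). In trb123, MAF5 rose (0.52, adjusted p = 0.000882) and MAF4 fell (-0.65, adjusted p = 0.00217). SVP, which encodes a partner of FLC, fell in trb123 (-4.28 ± 0.22 SE, adjusted p = 1.51e-08), with -0.24 and -0.43 in trb45 line 1 and line 2, where it was not called. RAV1, a B3 and AP2 domain factor, had 44.99, 54.5 and 41.3 FPKM in trb45 line 1, 34.6, 44.9 and 30.9 FPKM in trb45 line 2, 4.08, 16.0 and 4.16 FPKM in trb123, and 10.9, 10.4 and 11.1 FPKM in WT. Replicate 2 of trb123 was above all WT libraries for RAV1, so trb123 did not keep apart from WT. The telomere-binding gene TRP1 was a member with 0.35, 0.43 and -0.47 in trb45 line 1, trb45 line 2 and trb123.

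**Figure D4:**
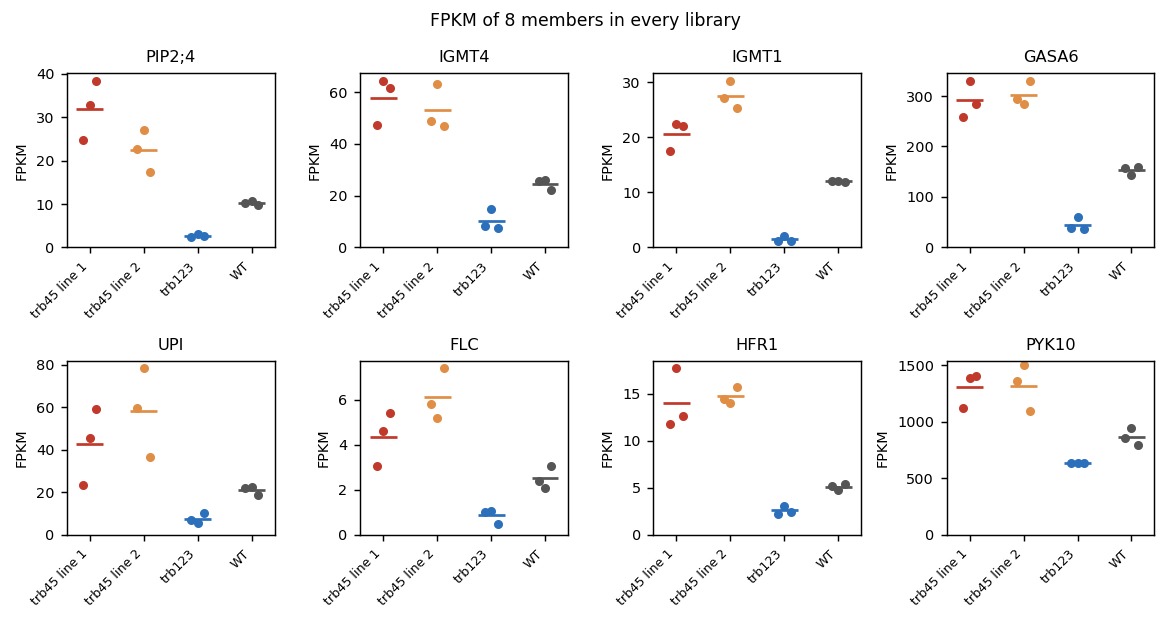
FPKM (vertical, starting at 0) of 8 members in every library of trb45 line 1, trb45 line 2, trb123 and WT; points are libraries and bars group means. In PIP2;4 the trb45 libraries span 17.4 to 38.3 FPKM and the trb123 libraries 2.45 to 3.0 FPKM, with WT at 9.78 to 10.7 FPKM.

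Sugar transport and genes known to respond to low sugar were represented as well. SWEET16 and SWEET17 export sugars from the vacuole, SAG29 is the transporter SWEET15, and STP1 and STP14 import sugars into the cell. SWEET16 had 9.22, 13.2 and 12 FPKM in trb45 line 1, 11.5, 9.14 and 7.73 FPKM in trb45 line 2, 0.68, 1.60 and 0.32 FPKM in trb123, and 6.53, 8.07 and 6.92 FPKM in WT. SAG29 had 34.99, 51.8 and 37.5 FPKM in trb45 line 1, 43.3, 37.1 and 29.7 FPKM in trb45 line 2, 5.84, 6.25 and 5.88 FPKM in trb123, and 27.0, 25.4 and 20.8 FPKM in WT. One line 2 library of SWEET16 overlapped WT, and SAG29 overlapped in neither line. Of 12 listed low-sugar response genes, in a list drawn up with the members known, 6 were members: DIN9, DYL1, DRM2, GDH2, BZIP63 and STP1. DYL1 had 59.5, 69.4 and 68.1 FPKM in trb45 line 1, 82.2, 88.1 and 107.6 FPKM in trb45 line 2, 20.8, 32.7 and 18.5 FPKM in trb123, and 37.1, 34.3 and 44.96 FPKM in WT. Of the 6 that are no members, 6 were called higher in trb45 line 2 and 3 in trb45 line 1, and 2 were called higher and none lower in trb123, in the limma fit (adjusted p under 0.05).

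Among the remaining members with the largest distances, PP2-A13, a phloem lectin gene, had 18.1, 29.2 and 19.6 FPKM in trb45 line 1, 28.9, 28.0 and 28.5 FPKM in trb45 line 2, 3.49, 8.68 and 3.64 FPKM in trb123, and 9.20, 9.99 and 12.1 FPKM in WT. GASA6, a gibberellin-regulated peptide gene, had 259.0, 330.4 and 284.4 FPKM in trb45 line 1, 294.4, 284.3 and 329.8 FPKM in trb45 line 2, 37.9, 59.6 and 36.2 FPKM in trb123, and 157.2, 142.6 and 159.6 FPKM in WT. LHB1B1, a light-harvesting protein of photosystem II, had 1681 to 1817 FPKM in trb45 line 1, 1677 to 1860 FPKM in trb45 line 2, 441.4 to 477.3 FPKM in trb123, and 870.6 to 1105 FPKM in WT. In all 3 the groups did not overlap WT. LHB1B1 is 91.6% identical to LHB1B2 over 61.4% of its transcript, so shared fragments may move its value. The zinc finger genes OZF2 (1.0, 1.13 and -1.04) and OZF1 (0.80, 1.12 and -1.22), NUDT8 (0.88, 0.90 and -0.98), AT5G14090 (1.03, 0.92 and -1.43), AT5G11420 (1.13, 0.88 and -1.60), the lectin gene AT1G78850 (1.03, 0.81 and -0.82) and the lectin gene MBP1 (0.83, 0.94 and -0.77) complete the largest 20 with the genes named above and below, each given as trb45 line 1, trb45 line 2 and trb123.

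CYP81D11 was the strongest of 11 members among 165 listed cytochrome P450 genes, oxygenases of secondary metabolism (6.67%). It had 189.7, 238.6 and 233.3 FPKM in trb45 line 1, 218.6, 212.5 and 161.2 FPKM in trb45 line 2, 15.1, 25.9 and 16.5 FPKM in trb123, and 110.7, 112.9 and 114.5 FPKM in WT. Protein kinases gave 6 members of 665 listed genes (0.902%), against 1.44% over all listed genes. Both families were picked with the members known, so their shares are descriptions. Cell wall members included the expansin gene EXP3 (0.99, 1.06 and -0.58 in trb45 line 1, trb45 line 2 and trb123) and XTH32 (0.66, 0.44 and -0.34), an enzyme that rejoins xyloglucan. Hormone enzymes included EFE, the ethylene-forming enzyme, at 0.59, 0.47 and -1.45, NCED3 of abscisic acid synthesis at 0.64, 0.63 and -0.54, and GA3OX1 of gibberellin synthesis at 0.33, 0.41 and -0.33.

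In trb123, 6 members had at most 0.1 FPKM in every library: AT5G26270, AT5G16980, QQS, AT5G28442, AT4G22390 and AT2G14510. AT5G26270, of unknown function, had 69.0, 83.3 and 62.7 FPKM in trb45 line 1, 50.5, 63.2 and 41.7 FPKM in trb45 line 2, 0 FPKM in every trb123 library, and 26.5, 32.0 and 29.5 FPKM in WT. AT5G16980, a zinc-binding dehydrogenase, had 7.30, 11.3 and 12.8 FPKM in trb45 line 1, 15.2, 16.1 and 12.4 FPKM in trb45 line 2, 0, 0 and 0.02 FPKM in trb123, and 4.31, 5.28 and 6.12 FPKM in WT. AT5G26270 and AT5G16980 each have a neighbour that is also a member and was not at 0. The TRAF-like gene AT5G26280, next to AT5G26270, averaged 192.1 FPKM in trb45 line 1, 158.9 FPKM in trb45 line 2, 70.3 FPKM in trb123 and 106.5 FPKM in WT. The alkenal reductase gene AER, next to AT5G16980 and 93.6% identical to it over 56.4% of its transcript, averaged 173.4 FPKM in trb45 line 1, 209.1 FPKM in trb45 line 2, 56.9 FPKM in trb123 and 88.2 FPKM in WT. QQS, a species-specific gene of starch metabolism, was listed at 0.06, 0 and 0 FPKM in trb123, and at 0.71 to 1.11 FPKM in WT. AT5G28442 was listed at 0 in every trb123 library and at 0.51 to 1.06 FPKM in WT. AT4G22390, an F-box associated gene, had 0.03 to 0.08 FPKM in trb123 and 0.22 to 1.04 FPKM in WT. AT2G14510, a leucine-rich repeat kinase gene, had 0.07 to 0.09 FPKM in trb123 and 0.43 to 0.64 FPKM in WT. These last 4 were low in WT as well.

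Members lay on every chromosome, with 76, 41, 61, 41 and 70 on chromosomes 1 to 5, shares of 26.3%, 14.2%, 21.1%, 14.2% and 24.2% against 26.4%, 15.3%, 19.7%, 15.3% and 23.3% of listed genes. In 10 runs of adjacent protein-coding genes, 21 members stood next to another member. Besides the 2 pairs just named, these were CYP71B29 with CYP71B7, AT1G29450 with AT1G29460, AT1G29500 with SAUR68, PBP1 with JAL31, JAL33 with JAL34, AT5G59530 with AT5G59540, AT5G62350 with AT5G62360, and 3 GRAM domain genes, AT5G23350, AT5G23360 and AT5G23370. Most pairs belong to 1 family, and AT5G23350 and AT5G23370 share 90.4% of transcript sequence. In the GRAM domain run the means were 7.39, 6.17 and 3.06 FPKM in trb45 line 1, 9.90, 5.53 and 3.16 FPKM in trb45 line 2, 1.61, 1.40 and 0.80 FPKM in trb123, and 2.76, 2.80 and 1.44 FPKM in WT. Members were shorter than listed genes at large, with a median exon length of 1469 against 1744 bases, and had fewer exons, with a median of 3 against 4. Genes with 1 exon made up 26.3% of members and 16.4% of listed genes, and the median GC content of exons was 39.8% in members and 41.3% in listed genes. In all, 23 members had a transcript at least 90% identical to that of another gene over at least 50% of its length, and 65 overlapped another annotated gene. Among the 65, PP2-A13, GASA6, CYP81D11, AT5G26270, IAA3 and PYK10 overlap a gene on the other strand, as FLC does. The limit on strand use given for FLC holds for them too.

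The rule set no limit on the difference between trb45 line 1 and trb45 line 2, but it required both to exceed WT, so genes high in 1 line alone were left out and the values compared here are among those it used. The counts of members called between the lines are therefore a description. Of 288 members with enough signal to test, limma called 10, or 3.47%, against 4.63% of all 18700 tested genes, so the share lay near the background and says nothing particular of the members. Of these, 9 were higher in line 1 and 1 in line 2, and 64 members had an unadjusted p under 0.05. Line 1 was above line 2 for 154 of the 289 members, with a median difference of 0.01. Over all listed genes it was above for 8363 of 20114, with a median of -0.05. AT1G29660, a GDSL-type lipase gene, had 107.3, 117.2 and 103.1 FPKM in trb45 line 1 and 59.9, 60.8 and 48.8 FPKM in trb45 line 2, with 18.5, 26.2 and 18.2 FPKM in trb123 and 37.4, 49.9 and 40.0 FPKM in WT. The line difference was 0.94 ± 0.15 SE with a limma adjusted p of 0.0228, and the lines did not overlap. AT5G62360, which holds a telobox, had 6.12, 11.8 and 7.85 FPKM in trb45 line 1 and 3.49, 4.83 and 1.67 FPKM in trb45 line 2, a difference of 1.18 ± 0.28 SE with a limma adjusted p of 0.0433. XTH17, a xyloglucan enzyme gene that is 90.7% identical to XTH18, had 24.2, 40.1 and 26.0 FPKM in trb45 line 1 and 16.5, 21.7 and 13.9 FPKM in trb45 line 2, a difference of 0.75 ± 0.18 SE with a limma adjusted p of 0.0433. The other 3 of the 6 with the smallest adjusted p were AT2G30930 (0.75 ± 0.14 SE, limma adjusted p = 0.0302), DCF (0.63 ± 0.15 SE, limma adjusted p = 0.0433) and scpl2, the one higher in line 2 (-0.70 ± 0.15 SE, limma adjusted p = 0.0378). These calls rested on the libraries used. Without replicate 3 of line 1, 44 members were called, and without replicate 1 or 2 of line 1, or replicate 1 or 3 of line 2, limma called 0, with 45 to 66 at an unadjusted p under 0.05. Without replicate 2 of line 2 it called 11, and without any 1 library of trb123 or WT it called 1 to 4.

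**Figure D5:**
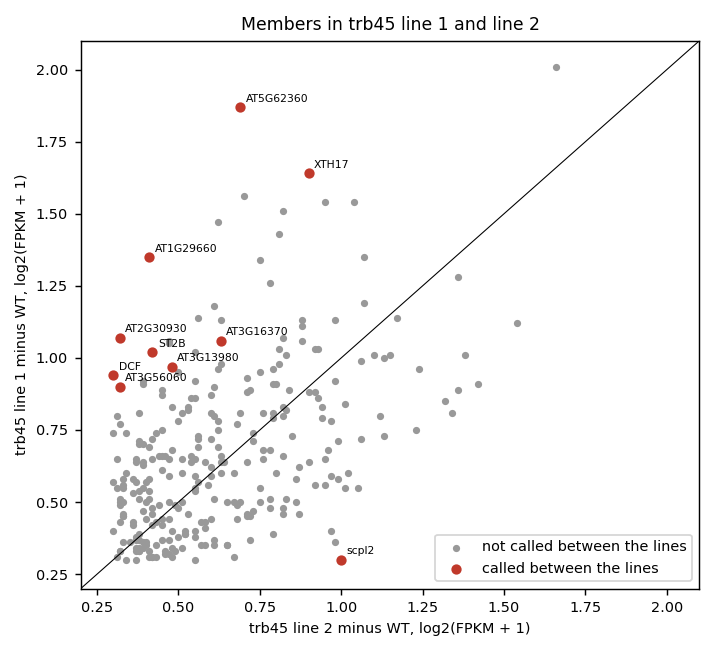
Each point is a member, placed by trb45 line 2 minus WT (horizontal) and trb45 line 1 minus WT (vertical), in log2(FPKM + 1), with the line of equality; the 10 members called between the lines are red and named. Points scatter on both sides of the line, and AT5G62360, at a line difference of 1.18, lies farthest above it among the called members.

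Outside the members, the pathway lists gave the context of each contrast. Limma called 192, 196 and 242 of 288 members in trb45 line 1 (higher), trb45 line 2 (higher) and trb123 (lower), contrasts that chose them. Over all 18700 tested genes the shares past the threshold were 7.77% upward and 10.4% downward in trb45 line 1, 14.9% and 15.6% in trb45 line 2, and 33.9% and 25.5% in trb123. Of 99 tested list genes that are no members, 18 were called higher and 6 lower in trb45 line 1, 14 higher and 11 lower in trb45 line 2, and 31 higher and 34 lower in trb123. Their medians were 0.03, -0.02 and 0.06. The list genes called in trb45 line 1, members included, numbered 34, and 18 without replicate 2 of that line, 13 without replicate 1 of WT and 14 without replicate 3 of WT. Of the 11 lists, 5 held no member. In nitrate uptake and reduction, 3 of 8 genes rose and 1 fell in trb45 line 1, 2 rose and 2 fell in trb45 line 2, and 5 rose and 2 fell in trb123, with the nitrate transporter gene NRT2.1 at 1.67 ± 0.15 SE (adjusted p = 1.1e-06), the nitrate reductase gene NIA2 at 1.04 ± 0.10 SE (adjusted p = 1.85e-06) and NRT1.5 at -2.30 ± 0.13 SE (adjusted p = 2.96e-08) in trb123. NIA2 also rose and NRT1.5 also fell in both trb45 lines. In iron uptake, 4 of 12 rose in trb45 line 1, 1 fell in trb45 line 2, and 3 rose and 8 fell in trb123, with BHLH101 at -2.56 ± 0.31 SE (adjusted p = 1.61e-05), BHLH39 at -2.41 ± 0.31 SE (adjusted p = 2.96e-05) and the iron transporter gene IRT1 at -2.09 ± 0.26 SE (adjusted p = 1.94e-05) in trb123. IRT1 rose in trb45 line 1 (0.79 ± 0.26 SE, adjusted p = 0.0498). In salicylate and camalexin defence, 1 of 9 rose and 2 fell in trb45 line 1, 1 rose and 1 fell in trb45 line 2, and 4 rose in trb123, WRKY70 (1.92 ± 0.21 SE, adjusted p = 6.74e-06), CYP71A12 (0.94 ± 0.16 SE, adjusted p = 0.000293) and PAD3 (0.50 ± 0.13 SE, adjusted p = 0.00466) among them. In phosphate starvation, 1 of 6 rose in trb45 line 1, 3 rose in trb45 line 2, and 2 rose and 2 fell in trb123, with PHO1;H1 at 0.70 ± 0.14 SE (adjusted p = 0.00104) and SQD2 at -0.60 ± 0.10 SE (adjusted p = 0.00024), and SPX1 rose in trb45 line 1 (0.67 ± 0.14 SE, adjusted p = 0.00705) and line 2 (0.79 ± 0.14 SE, adjusted p = 0.00163). In sulfur starvation, 1 of 7 fell in trb45 line 2 and 3 fell in trb123, with LSU1 at -1.29 ± 0.35 SE (adjusted p = 0.00628) and APR3 at -0.52 ± 0.16 SE (adjusted p = 0.014), and LSU2 fell in trb45 line 2 (-1.79 ± 0.35 SE, adjusted p = 0.00269).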

How the data were processed

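Polyadenylated RNA of 12 seedling libraries (3 per genotype) was sequenced from stranded DNBSEQ libraries, per the labels' protocols. The authors deposited FPKM values rounded to 2 decimals, in 1 table with a block per genotype; the submitters' processing notes name STAR 2.7.1, DESeq2 and the build TAIR10. The deposited trb45 line 1 block writes decimals with commas and was read as FPKM on that basis. Repeat lines with the same gene ID, 178 to 183 per block, were used once, and 20114 genes listed in every block were joined. All columns of values were used.

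Members and lists were chosen with earlier results of these data known. Differences are of group means of log2(FPKM + 1), which understate changes of low genes. Genes with at least 1 FPKM in at least 3 libraries (18700) entered 1 model of 4 group means over all 12 libraries, using eBayes with trend from limma (version 3.58.1, R version 4.3.3), with Benjamini-Hochberg adjustment over all tested genes and a threshold of 0.05. The code was tested on simulated data. Library depth and its precision are as inferred from the FPKM steps.

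Named genes were the 20 members with the largest score (the smallest of 3 distances from WT), members in pathway lists, the 6 with the smallest adjusted p between the lines, 3 genes on each side of the limit, neighbouring members, the TRB genes and up to 3 other genes per list; the role groups and their examples were added after values were seen. IDs were matched to the RefSeq TAIR10.1 annotation for 20020 of 20114 genes and all 289 members, and coordinates are of that build. Transcript identity came from blastn 2.17.0. Alternatives covered pseudocounts, scalings, filters, thresholds, fits and left-out libraries.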

Additional observations from a re-analysis of the deposited data

Results flagged for a closer look

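Between trb45 line 1 and trb45 line 2, limma called 10 of 288 tested members (3.47%), a share below the 4.63% of all tested genes. The choice of members used the means of both lines, so these calls are not independent of it. They fell to 0 in a fit of only the 2 lines, and to 0 without replicate 1 or 2 of line 1 or replicate 1 or 3 of line 2, while 44 members were called without replicate 3 of line 1. On the log2(FPKM + 1) scale, line 1 minus line 2 was 1.18 for AT5G62360, 0.94 for AT1G29660, 0.75 for AT2G30930, 0.75 for XTH17, 0.63 for DCF, 0.60 for ST2B, 0.58 for AT3G56060, 0.49 for AT3G13980, 0.42 for AT3G16370 and -0.70 for scpl2. ST2B encodes a sulfotransferase, DCF an acyltransferase of cutin synthesis, and AT1G29660 and AT3G16370 encode GDSL-type lipases. AT3G16370 had 397.8, 397.7 and 398.8 FPKM in trb45 line 1 and 301.2, 315.1 and 275.5 FPKM in trb45 line 2. ST2B had 18.5, 26.7 and 17.8 FPKM in trb45 line 1 and 12.5, 14.0 and 13.5 FPKM in trb45 line 2. The libraries of the lines did not overlap in either gene.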

How the results depend on the processing

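The 289 members became 148 with a pseudocount of 5, 104 with a distance of at least 0.5 and 489 with a distance of at least 0.2; all 289 remained in the last, while the first 2 are subsets. Leaving out 1 library in turn gave 251 to 325 members. The median-ratio scaling gave 341 genes, all 289 among them, and quantile normalization 335, with 284 of the 289. Between the lines, the 10 members called became 17 with the replicate block, 9 of the 10 among them. Deviations of same-numbered libraries of the lines correlated at 0.111, 0.205 and -0.00417 in replicates 1, 2 and 3. Those of trb45 line 2 and WT correlated at -0.0112, 0.318 and 0.222. The labels do not say whether same-numbered libraries share more than a number. The 10 members called became 0 with a fit of only the 2 groups compared and 0 at an adjusted p under 0.01. With 1 library left out they became 0 to 44. In limma with only those 2 groups, 50 members had an unadjusted p under 0.05. The pathway list genes called numbered 34, 37 and 77 in trb45 line 1, trb45 line 2 and trb123 against WT, 32, 39 and 77 with the replicate block, and 13 to 35, 28 to 43 and 66 to 79 with 1 library left out. At an adjusted p under 0.01 they were 12 in trb45 line 1 and 23 in trb45 line 2. The causes were not tested. No named difference changed sign, but sign is a weak check of members chosen by their distance from WT. Among checks of named members, 264 were classed as moved and 3051 as the same. Among checks of genes named between the lines, 115 were classed as weaker and 85 as the same. With only the 250 bases before the start, the RY element share of members was 0.346%, and the telobox share of listed genes 3.56%. FPKM without counts gives no error per value, and 3 libraries a group limit the precision of every difference.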
